A study of Mus musculus with 10 samples.

Results

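Gdf6 and Sfrp5 encode secreted proteins that act on the BMP and the Wnt pathway, and both lay next to differentially methylated regions (DMRs) between mesenteric (mLN) and peripheral lymph nodes (pLN). Their DMRs were taken as every region in the 4 deposited DMR tables whose nearest gene was Gdf6 or Sfrp5. This gave 3 of 2132 DMRs, 2 for Gdf6 and 1 for Sfrp5, with 34 of the 24182 CpGs in the CpG table. All 3 had a higher mean methylation in mLN than in pLN, in SPF and in GF mice. The regions were selected on measured values. These were the smoothed mLN and pLN methylation of SPF mice for both Gdf6 DMRs and of GF mice for the Sfrp5 DMR. Location differences in the libraries used for a call are given as a description, without a test. They were tested only in the libraries of the other housing condition.

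Non-endothelial stromal cells (SCs), the mesenchymal cells that form the scaffold of the node, were sorted from BALB/c mice as CD45-CD31-Ter119-gp38+ cells and subjected to whole-genome bisulfite sequencing (WGBS). The 10 libraries were 3 of gut-draining mLN and 3 of skin-draining pLN from specific pathogen-free (SPF) mice aged 7 to 12 weeks, and 2 of mLN and 2 of pLN from germ-free (GF) mice aged 6 to 10 weeks. The labels name no transgene and no treatment other than housing, and they do not say how many animals or which facility a library came from, so colony, facility and age cannot be told apart from housing and p-values measure the spread between these libraries. The methods list the SPF BALB/c mice of the study as CD90.1, bred in Braunschweig. They state that the GF BALB/c mice were generated in Hannover by caesarean section and kept in Hannover or Braunschweig. They do not assign these mice to single WGBS libraries, and a difference in genotype or breeding site cannot be told apart from housing. The reporting summary of the study states that 1 replicate each of mLN and pLN from GF mice was dropped as an outlier. These replicates were not analysed here. The labels call the pLN tissue a skin-draining mesenteric node, whereas the titles and protocols call it pLN, which was used here. A methylation value is the percentage of reads at a CpG that keep a cytosine after bisulfite treatment, and the number of reads behind each value is unknown. Since only CpGs inside DMRs were used, the identity of the sorted cells could not be checked by markers. Among 25 marker genes of stromal, endothelial, haematopoietic and perivascular cells, Cxcl13 (stroma) and Kdr (endothelium) were the nearest gene of a DMR. Of all protein-coding genes, 3.17% were. Cxcl13 was more and Kdr less methylated in mLN.

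BMPs are secreted ligands of the TGF-beta superfamily that signal through receptor kinases and SMAD proteins, and growth differentiation factor 6 (Gdf6) is such a ligand, best known for its part in joint, skull and eye development. Wnt ligands signal through frizzled receptors, largely by way of beta-catenin and TCF/LEF factors. Secreted frizzled-related protein 5 (Sfrp5) carries a frizzled-like domain, binds Wnt ligands outside the cell and is known as a Wnt antagonist, for instance in adipose tissue. Methylation of CpGs at regulatory elements often goes with low activity of the element, but methylation alone does not give the expression of a gene, and expression was not analysed here.

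In GRCm38 coordinates, the first Gdf6 DMR, called proximal below, was at chr4:9848904-9849259, 4532 to 4887 bp downstream of the transcriptional start site (TSS). The second, called distal, was at chr4:9849657-9850184, 5285 to 5812 bp downstream. In GENCODE M21, Gdf6 (ENSMUSG00000051279, plus strand, chr4:9844372-9862345) has 2 exons, and both DMRs were in its single intron of 14442 bp and touched no exon or UTR. The DMRs were 397 bp apart, and this gap held 1 CpG of the reference, which was not in the CpG table. The Sfrp5 DMR was at chr19:42205132-42205816, 2880 to 3564 bp upstream of the TSS of Sfrp5 (ENSMUSG00000018822, minus strand, chr19:42197971-42202252, 3 exons). It overlapped no annotated gene, and the next gene on its other side, Golga7b, began 41757 bp away. No DMR of another gene was within 250 kb of either TSS, and the nearest were 760 kb away for Gdf6 and 1009 kb away for Sfrp5. None of the 3 DMRs overlapped a DMR of another table.

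**Figure D1:**
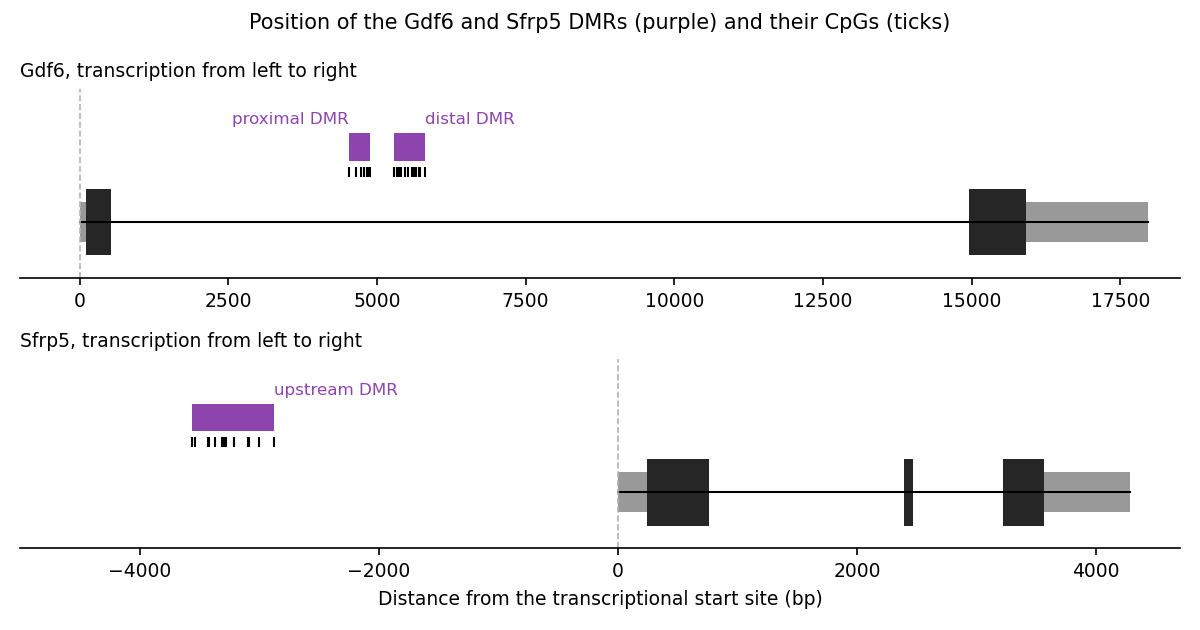
Gene models of Gdf6 (top) and Sfrp5 (bottom) from GENCODE M21, drawn from left to right in the direction of transcription against the distance from the TSS in bp. Black boxes are coding exons, grey boxes untranslated parts, purple boxes the DMRs and ticks their CpGs. The Gdf6 DMRs are in the intron and the Sfrp5 DMR is upstream of the gene.

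The sequences are shown because the differences between CpGs described below can be placed on them. Each is a 300-base stretch of the plus strand of the RefSeq GRCm38 assembly, a C57BL/6J reference and not that of the BALB/c mice, with every CpG in capitals. They hold CpGs 2 to 9 of the distal Gdf6 DMR (chr4:9849694-9849993) and CpGs 3 to 10 of the Sfrp5 DMR (chr19:42205333-42205632), numbered from 1 along the plus strand.
Gdf6 distal DMR: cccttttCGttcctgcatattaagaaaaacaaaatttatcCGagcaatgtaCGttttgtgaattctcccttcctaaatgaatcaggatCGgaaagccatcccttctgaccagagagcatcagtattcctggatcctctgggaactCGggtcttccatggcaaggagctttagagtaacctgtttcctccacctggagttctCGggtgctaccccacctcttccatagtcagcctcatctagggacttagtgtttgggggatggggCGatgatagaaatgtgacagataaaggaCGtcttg
Sfrp5 upstream DMR: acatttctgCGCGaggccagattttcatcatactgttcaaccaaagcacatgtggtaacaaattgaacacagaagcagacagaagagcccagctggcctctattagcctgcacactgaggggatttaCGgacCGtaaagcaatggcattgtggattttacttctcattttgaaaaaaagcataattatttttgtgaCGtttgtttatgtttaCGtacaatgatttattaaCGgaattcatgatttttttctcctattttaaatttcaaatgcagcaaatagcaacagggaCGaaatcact

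All 34 reference CpGs of the 3 DMRs were in the CpG table, 7, 13 and 14 of them, with a value in every library. The authors had counted 7, 11 and 9 CpGs in these DMRs. The proximal Gdf6 DMR was 43.7% G and C, the distal one 45.7% and the Sfrp5 DMR 38.0%, against a median of 46.5% over the 1602 regions obtained by merging overlapping DMRs of all tables. Of these regions, 93.8% had a higher G and C content than the Sfrp5 DMR. The CpG density was 1.96, 2.46 and 2.04 CpGs per 100 bp, against a median of 2.11. The 3 DMRs were intronic or intergenic stretches with a CpG density near this median.

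In the proximal Gdf6 DMR, the methylation level of the mLN SPF replicates was 61.9%, 70.1% and 77.4%, and that of the pLN SPF replicates was 33.1%, 33.8% and 33.4%. The mLN GF replicates had 61.2% and 74.5%, and the pLN GF replicates 59.3% and 45.8%. The pLN SPF libraries were therefore the low ones and lay within 1 point of each other, while the pLN GF libraries were between them and the mLN libraries. Group means were 69.8% ± 7.75 in mLN SPF and 33.4% ± 0.372 in pLN SPF (SD, n = 3 each), and 67.8% ± 9.40 in mLN GF and 52.5% ± 9.56 in pLN GF (SD, n = 2 each).

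In the distal Gdf6 DMR, the mLN SPF replicates had 75.6%, 74.3% and 75.7% methylation and the pLN SPF replicates 39.9%, 53.4% and 56.6%. The mLN GF replicates had 77.0% and 73.3%, and the pLN GF replicates 51.6% and 53.7%. The mLN libraries were close together in both housing conditions, and replicate 1 of pLN SPF was the lowest library. Group means were 75.2% ± 0.80 in mLN SPF and 49.98% ± 8.91 in pLN SPF (SD, n = 3 each), and 75.2% ± 2.62 in mLN GF and 52.7% ± 1.51 in pLN GF (SD, n = 2 each).

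In the Sfrp5 DMR, the mLN SPF replicates had 78.9%, 76.6% and 74.2% methylation and the pLN SPF replicates 38.7%, 47.2% and 42.4%. The mLN GF replicates had 80.9% and 82.3%, and the pLN GF replicates 40.7% and 49.8%. The lowest mLN library was 24.4 points above the highest pLN library, against 16.7 points for the distal and 1.91 points for the proximal Gdf6 DMR. Group means were 76.6% ± 2.36 in mLN SPF and 42.8% ± 4.24 in pLN SPF (SD, n = 3 each), and 81.6% ± 0.959 in mLN GF and 45.3% ± 6.41 in pLN GF (SD, n = 2 each). In all 3 DMRs every mLN library was above every pLN library, and 78.6% of the 1602 merged regions separated the 5 mLN from the 5 pLN libraries in this way, in either direction.

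**Figure D2:**
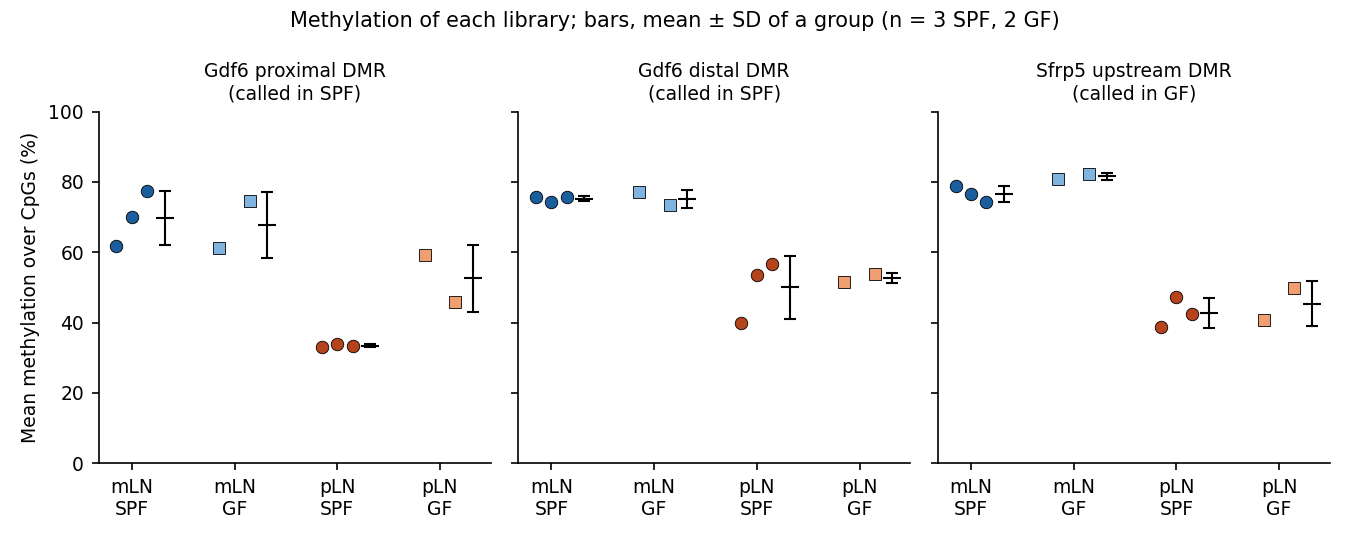
Mean methylation over the CpGs of each DMR in percent, 1 point per library, by group. Circles are SPF and squares GF libraries, blue mLN and orange pLN, and bars give the mean ± SD (n = 3 SPF, 2 GF). The pLN GF libraries of the proximal Gdf6 DMR, at 59.3% and 45.8%, are above the pLN SPF libraries at 33.1% to 33.8%.

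As smoothed by the authors, the differences (mLN minus pLN) that defined the DMRs were 30.9 points for the proximal and 26.7 points for the distal Gdf6 DMR in SPF mice and 29.6 points for the Sfrp5 DMR in GF mice. The smallest difference in the tables was 25 points and the median was 28.2 points in the SPF and 28.8 points in the GF location table. By the size of this difference, the proximal and distal Gdf6 DMRs were number 246 and 568 of 806, and the Sfrp5 DMR was number 559 of 1293. Ranked by the authors' areaStat, the summed t-statistics of its CpGs, the proximal and distal Gdf6 DMRs were number 577 and 512 of 806, and the Sfrp5 DMR was number 442 of 1293. From the unsmoothed values, the same differences were 36.3, 25.3 and 36.3 points. For the proximal Gdf6 DMR the unsmoothed pLN SPF mean, 33.4%, was below the smoothed mean of 49.0%. The unsmoothed mLN SPF mean, 69.8%, was also below its smoothed mean of 80.0%.

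Whether a difference found in 1 housing condition was also present in the other was asked in the libraries that had not been used to call the DMR. For Sfrp5 these were the SPF libraries, in which the DMR was 33.8 points more methylated in mLN (SE 4.46, 3 against 3 libraries, limma with Benjamini-Hochberg adjustment over all 1293 GF location DMRs, adjusted p = 8.90e-05). The mLN and pLN libraries did not overlap. In the exact permutation test of this value alone (two-sided) p was 0.1, the smallest that 3 against 3 libraries allow. Of all GF location DMRs, 82.4% were called in the SPF libraries in the direction of the table, and 73.7% of the 773 without an overlapping SPF location DMR, so the call is that of most such regions. The difference was larger than in most of the list, with 31.0% of the 1293 DMRs showing a larger one in the direction of the table and a median of 26.4 points. Groups that did not overlap were found in 81.4% of the list.

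For Gdf6 the unused libraries were those of GF mice. The distal DMR was 22.5 points more methylated in mLN GF than in pLN GF (SE 4.14, 2 against 2 libraries, limma adjusted over all 806 SPF location DMRs, adjusted p = 0.00281). The proximal DMR was 15.3 points higher in mLN GF, with an SE of 6.79, and did not pass the test (limma, adjusted p = 0.0726). This value depended on single libraries. Without replicate 1 of pLN GF, the library with 59.3%, the difference was 22.1 points and passed (limma adjusted p = 0.0407), and without replicate 1 of mLN GF it was 21.97 points (limma adjusted p = 0.0506). Without replicate 2 of mLN GF or of pLN GF it was 8.67 or 8.56 points (limma adjusted p = 0.336 and 0.316). The mLN GF and pLN GF libraries did not overlap in either DMR, by 1.91 points in the proximal one, and the exact permutation p was 0.33 for both, the smallest that 2 against 2 libraries allow (two-sided). Of the 806 SPF location DMRs, 89.0% were called in the GF libraries in the direction of the table, 78.5% of the 358 without an overlapping GF location DMR were called, and 93.7% had groups that did not overlap. Both Gdf6 differences were on the low side of this list, whose median was 30.7 points. A larger difference was found in 76.4% of the list for the distal and in 88.5% for the proximal DMR.

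**Figure D3:**
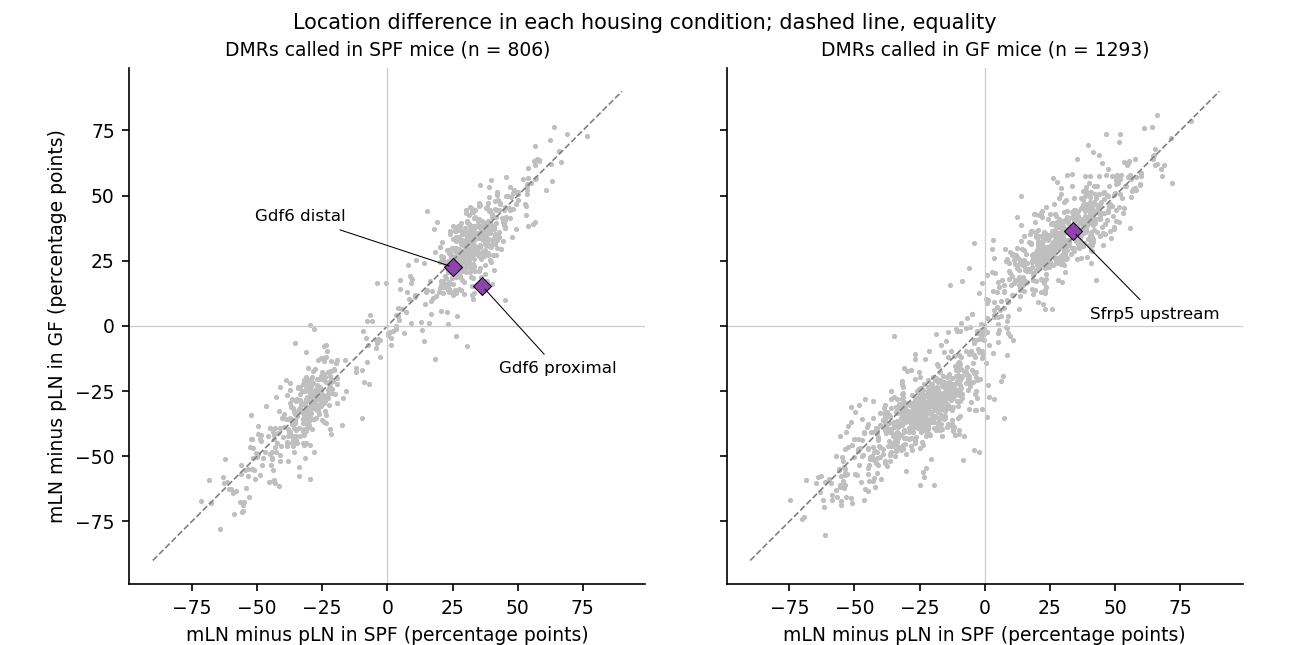
Difference in methylation, mLN minus pLN in percentage points, in SPF (x axis) and GF mice (y axis) for each DMR called between mLN and pLN in SPF mice (left, 806) or in GF mice (right, 1293). Grey points are DMRs, purple diamonds those of Gdf6 and Sfrp5, and the dashed line marks equal differences. Sfrp5 and the distal Gdf6 DMR are near the line, and the proximal Gdf6 DMR is below it, at 36.3 points in SPF and 15.3 points in GF.

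Within the proximal Gdf6 DMR, the mean of each of the 7 CpGs was higher in mLN SPF than in pLN SPF, by 16.3 to 55.6 points. In GF mice 5 of the 7 were higher in mLN, with a range from -12.5 to 33.9 points, and at 3 of them both mLN GF libraries were above both pLN GF libraries. Over the CpGs of all SPF location DMRs this was the case for 64.6% in the direction of the table. CpGs 3 and 4, 4738 and 4781 bp from the TSS, were the ones at which all 5 mLN libraries were above all 5 pLN libraries. At CpG 4 the mLN SPF libraries had 66.7%, 71.4% and 100%, the mLN GF libraries 69.2% and 100%, the pLN SPF libraries 44.4%, 27.3% and 33.3% and the pLN GF libraries 50% and 54.5%.

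The CpGs with a GF difference below 0 were CpGs 1 and 6, at -12.5 and -2.86 points. At CpG 6 the pLN libraries had 50%, 57.1% and 75.0% in SPF mice but 100% and 85.7% in GF mice, and the mLN GF libraries 80.0% and 100%. At CpG 7 the pLN SPF libraries had 33.3%, 25% and 25%, and the pLN GF libraries 100% and 33.3%. All 7 CpGs had a lower mean in pLN SPF than in pLN GF, whereas in mLN 3 of the 7 were lower in SPF mice and 4 were higher. The SPF libraries were used to choose this DMR, which favours a low pLN SPF mean. These counts are therefore a description and were not compared with other DMRs. CpGs of 1 DMR share reads and are not replicates, so no test was made over them.

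Within the distal Gdf6 DMR, 12 of the 13 CpGs had a higher mean in mLN SPF than in pLN SPF, by up to 49.9 points. In GF mice 11 of 13 were higher in mLN, by up to 47.3 points. CpG 4 went the other way in GF mice, by -14.6 points. It had 75% and 25% in the mLN GF libraries and 62.5% and 66.7% in the pLN GF libraries. The largest SPF difference was at CpG 10, where the mLN SPF libraries had 100%, 54.5% and 88.9% and the pLN SPF libraries 0%, 50% and 43.8%. At 7 of the 13 CpGs the mLN GF libraries were above both pLN GF libraries. Over the CpGs of all SPF location DMRs this was the case for 64.6% in the direction of the table. In SPF mice the location difference was spread over the region. Only at CpGs 7 and 12, at 5523 and 5721 bp from the TSS, were all 5 mLN above all 5 pLN libraries. Over the CpGs of all location DMRs, 33.4% separated the 5 mLN from the 5 pLN libraries, in either direction. At CpG 7 the mLN libraries ranged from 77.8% to 90.0% and the pLN libraries from 40% to 57.1%.

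The remaining CpG of the distal DMR, CpG 9 at position 9849987 of chromosome 4, was at 0 in all 10 libraries, between neighbours that were methylated in most libraries. It is the last CpG of the distal sequence above. CpGs at 0 in every library made up 135 of 24158, or 0.559%, of the CpGs with a value in each group. Whether this CpG exists in BALB/c mice was not tested. Without it, the distal DMR had a mean of 81.5% in mLN SPF, 81.4% in mLN GF, 54.1% in pLN SPF and 57.1% in pLN GF.

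Within the Sfrp5 DMR, all 14 CpGs had a higher mean in mLN SPF than in pLN SPF, by 8.87 to 67.1 points, and 12 of 14 in GF mice, by up to 92.3 points. At 11 of the 14 CpGs all mLN SPF libraries were above all pLN SPF libraries, against 48.5% of the CpGs over all GF location DMRs in the direction of the table. At 8 of the 14 the 5 mLN libraries were above the 5 pLN libraries, with 2 of 7 and 2 of 13 for the Gdf6 DMRs and 33.4% of the 23876 CpGs in location DMRs in either direction. These values include the libraries that chose the DMRs and are a description. These 8 included CpGs 2 to 6, a run of 5 neighbours from 3005 to 3213 bp upstream of the TSS.

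The largest differences of any CpG in the 3 DMRs were at Sfrp5 CpGs 3 and 4, the pair at the start of the Sfrp5 sequence above, which are 2 bp apart. At CpG 3 the mLN SPF libraries had 83.3%, 83.3% and 71.4%, the mLN GF libraries 100% and 100%, the pLN SPF libraries 0%, 33.3% and 20% and the pLN GF libraries 0% and 15.4%. At CpG 4 the mLN SPF libraries had 100%, 71.4% and 83.3%, the mLN GF libraries 100% and 70.0%, the pLN SPF libraries 20%, 33.3% and 0% and the pLN GF libraries 0% and 16.7%. The 5 pLN libraries had at most 33.3% and the 5 mLN libraries at least 70% at this pair. Farther upstream, the difference was close to 0 in GF mice at some CpGs, and at CpGs 10 and 13 the GF difference was -0.893 and -2.22 points. The positions of large and small differences were read from the values and are a description.

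**Figure D4:**
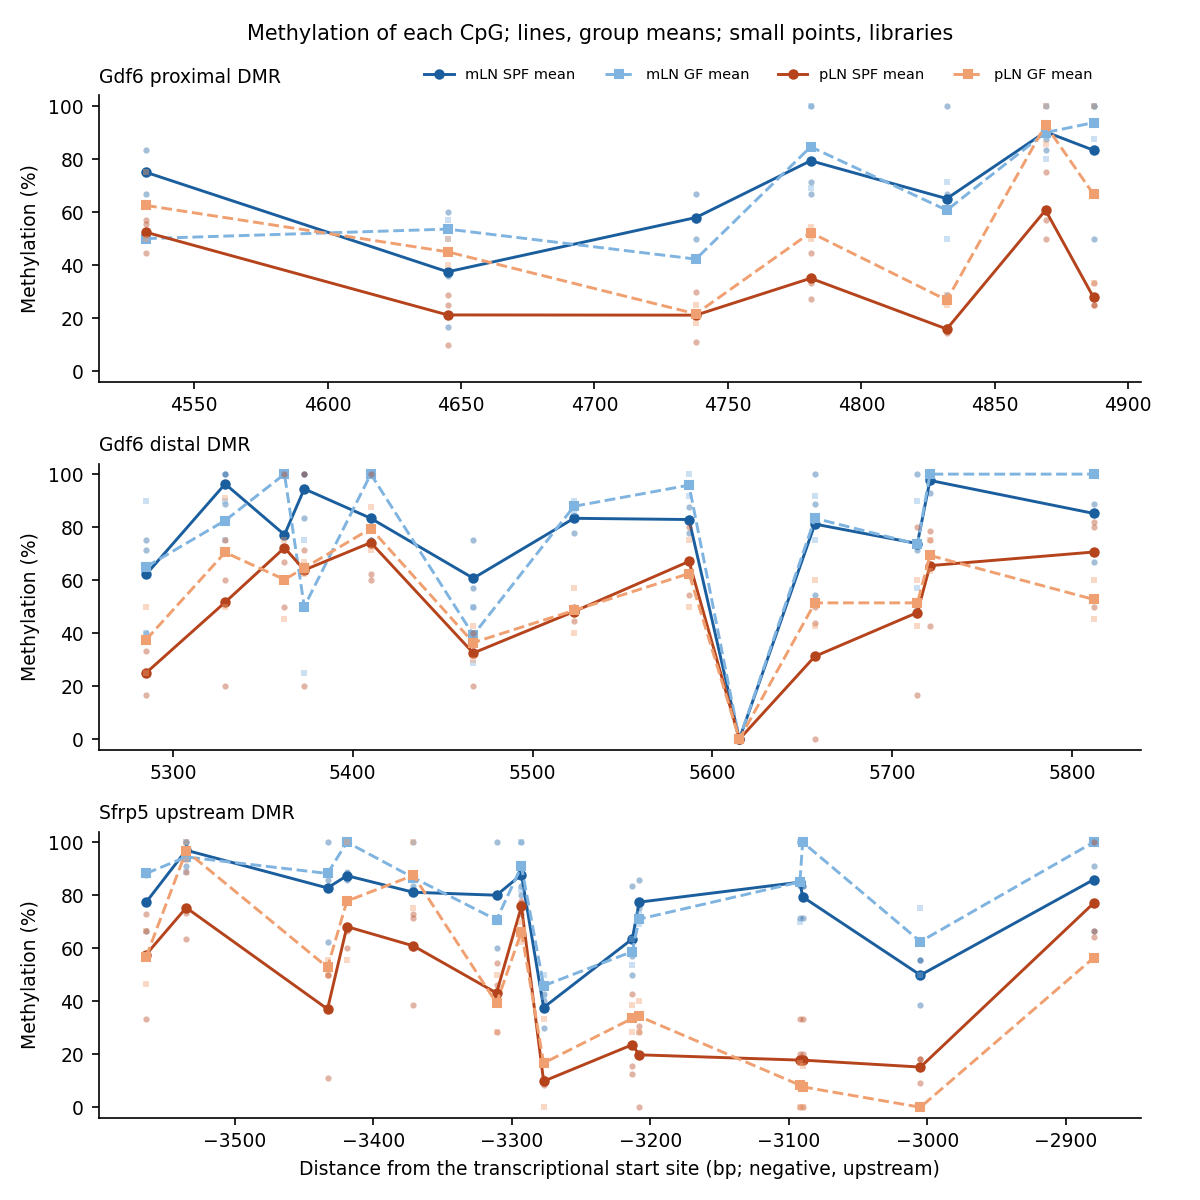
Methylation in percent of each CpG against its distance from the TSS in bp, for the proximal and distal Gdf6 DMRs and the Sfrp5 DMR. Lines join group means (solid SPF, dashed GF, blue mLN, orange pLN) and small points are single libraries. The mLN and pLN lines are farthest apart at Sfrp5 CpGs 3 and 4, and all 4 lines fall to 0 at distal Gdf6 CpG 9.

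**Figure D5:**
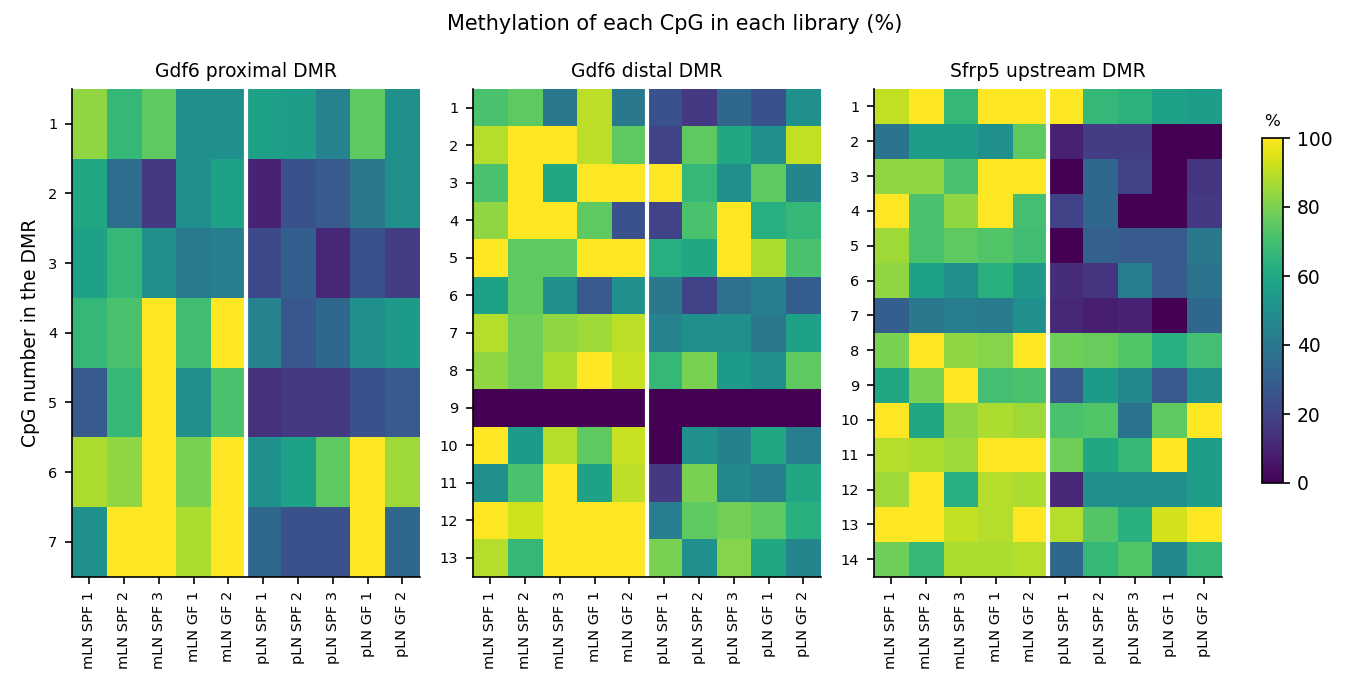
Methylation in percent of each CpG (rows, numbered along the plus strand) in each of the 10 libraries (columns, 5 mLN left and 5 pLN right of the white line), from 0 (dark) to 100 (yellow). The dark block of the pLN libraries at Sfrp5 CpGs 2 to 7 and the row at 0 in the distal Gdf6 DMR stand out.

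The DMRs were chosen on location and not on housing, but the choice used the libraries of 1 housing condition. Averaged over both locations, SPF minus GF was -8.58 points for the proximal Gdf6 DMR, -1.32 points for the distal one and -3.77 points for Sfrp5. The exact permutation p was 0.19, 0.88 and 0.14 (housing permuted within location, 100 arrangements, two-sided, smallest possible p 0.01). In limma over the 1602 merged regions all 3 had an adjusted p of 0.991, and 0% of the regions were called for housing, with 72 regions at an unadjusted p under 0.05. The value of the proximal Gdf6 DMR was made up of a difference of 1.93 points in mLN and -19.1 points in pLN. These are given as a description, since the mLN SPF and pLN SPF libraries were used to choose this DMR. Its pLN SPF and pLN GF libraries did not overlap, as in 24.8% of the merged regions in either direction.

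The location difference of the proximal Gdf6 DMR was 21.02 points larger in SPF than in GF mice (SE 8.38), with an unadjusted p of 0.0289 and an adjusted p of 0.514 in limma, and so did not pass the test of the interaction of location and housing. The corresponding values were 2.74 points (SE 7.12) for the distal Gdf6 DMR and -2.52 points (SE 6.22) for Sfrp5, with limma adjusted p-values of 0.922 and 0.914. Of the 1602 regions 0% were called for the interaction, and 141 had an unadjusted p under 0.05. The Gdf6 DMRs were chosen for a large SPF difference, which raises the interaction. The Sfrp5 DMR was chosen for a large GF difference, which lowers it. The interaction values of the members are therefore a description. Of the 355 regions called for location in SPF mice alone, 7.32% had an unadjusted limma p under 0.05. This held for 13.2% of the 770 called in GF mice alone and 1.58% of the 444 called in both. The 2 Gdf6 DMRs are neighbours in 1 intron, and whether their interactions differ was not tested.

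The BMP and Wnt pathways were described by lists of 58 BMP and 63 Wnt genes, of which 4 and 9 were the nearest gene of a DMR. Among all protein-coding genes this held for 3.17% (695 of 21924). Directions below are those of the authors' calls and were not tested again. Of the 23 BMP family ligands, Gdf6 was more and Bmp6 less methylated in mLN, and none of the 18 BMP antagonists was next to a DMR. Bmp6, a ligand of the same superfamily, had a DMR 68557 bp from its TSS with 22.3% ± 4.85 methylation in mLN SPF and 70.2% ± 4.25 in pLN SPF (SD, n = 3 each). Among the 17 receptors, SMADs and targets, Smad1, which carries the BMP signal to the nucleus, and Id2, a BMP target gene, were both more methylated in mLN. The Smad1 DMR had 73.0% ± 1.94 in mLN SPF and 52.0% ± 2.40 in pLN SPF, and the Id2 DMR, 178260 bp from the TSS, 64.4% ± 5.10 and 39.9% ± 1.68 (SD, n = 3 each).

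Of the 14 secreted or cell-surface Wnt antagonists, 2 were next to a DMR, Sfrp5, more methylated in mLN, and its relative Sfrp1, less methylated in mLN. The Sfrp1 DMR, 41165 bp from its TSS, had 47.8% ± 6.65 in mLN GF and 79.0% ± 8.64 in pLN GF (SD, n = 2 each), the libraries of its call. In the SPF libraries it had 63.3% ± 4.15 in mLN and 76.7% ± 5.80 in pLN (SD, n = 3 each). Of the 23 Wnt and R-spondin ligands, Wnt4 had 1 DMR that was more methylated in mLN and Wnt2b 5 DMRs that were all less methylated in mLN. Of the 26 receptors and nuclear effectors, 5 were next to a DMR, among them the receptor gene Fzd10, the feedback inhibitor gene Axin2 and the transcription factor genes Tcf7l1 and Lef1. The Fzd10 DMR of the SPF table had 85.0% ± 4.45 in mLN SPF and 43.3% ± 2.79 in pLN SPF, and the Axin2 DMR, 301 bp from the TSS, 36.2% ± 3.12 and 64.1% ± 7.45 (SD, n = 3 each). Ror1, a Wnt receptor gene, had a DMR between pLN SPF and pLN GF alone. The direction was mixed in both pathways. Of the 12 genes with a location DMR, 7 were more methylated in mLN, 4 less and 1, Lef1, both, and over all 1100 genes with a location DMR 47.5% were only more and 47.8% only less methylated in mLN.

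The 5 short motifs of the TCF/LEF, SMAD, MEIS, homeodomain and NKX2 families were searched on both strands in the central 300 bp of each DMR and of all 1602 merged regions. The homeodomain motif TAATTA occurred at 1 position in the proximal Gdf6 DMR, 18 bp from CpG 3, and at 1 in the Sfrp5 DMR, 10 bp from CpG 7, and 9.55% of the merged regions held it. The MEIS motif TGACAG occurred in the distal Gdf6 DMR at 2 positions, 9 and 12 bp on either side of CpG 9, and 22.9% of the merged regions held it. The core motif CTTTGA of TCF/LEF factors, the GC-rich element GGCGCC of SMAD proteins and the motif CACTTNA of NKX2 factors were not found in the central 300 bp of the 3 DMRs, and were present in 24.0%, 2.50% and 17.4% of the merged regions. The rest of the Sfrp5 DMR held 1 further match each of the homeodomain, TCF/LEF and NKX2 motifs, and no match overlapped another. A match of letters is no evidence of binding.

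The regions whose levels over the 10 libraries were most like those of the distal Gdf6 DMR, by the root mean squared difference, were next to 4930555F03Rik (3.97 points), Dock2 (3.98 points) and Gm27952 (4.56 points), against a median of 26.1 points over all other regions. For Sfrp5 they were next to D6Ertd474e (2.55 points), Gm12120 (3.15 points) and Rhbdd1 (3.90 points), against a median of 29.1 points. The distal Gdf6 and the Sfrp5 DMR differed from each other by 6.99 points by this measure. The D6Ertd474e region had a mean of 78.4% in mLN and 44.6% in pLN, next to 78.6% and 43.8% for Sfrp5.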

How the data were processed

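WGBS libraries of sorted non-endothelial SCs (3 mLN SPF, 2 mLN GF, 3 pLN SPF, 2 pLN GF) were analysed from processed files. Per the labels and the methods, the authors checked read quality and adapters with FastQC 0.11.1, trim_galore and cutadapt 1.4. They aligned reads to GRCm38 with BSMAP 2.4.3 and kept unique, paired, de-duplicated reads. CpGs needed a coverage of 5 in 2 or more replicates of a condition. Methylation levels were smoothed with bsseq and DMRs of at least 3 CpGs were called. The deposited CpG table gives, per library, the unsmoothed fraction of methylated reads without coverage. The deposited DMR tables give smoothed group means as fractions and a score, areaStat. Read depth was not used here, so no counting error is given.

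Fractions were multiplied by 100 and averaged over all CpGs of the table inside a DMR. A CpG entered if each group had it measured in 1 library or more. Location differences are mLN minus pLN and housing differences SPF minus GF. DMRs of the 4 tables overlapping by at least 1 bp were merged. Tables were fitted whole with limma 3.58.1 (R 4.3.3, lmFit and eBayes, Benjamini-Hochberg adjusted p under 0.05), after a test on simulated data. Location was fitted in libraries not used for a call (GF location DMRs in 6 SPF libraries, SPF location DMRs in 4 GF libraries). Housing and the interaction were fitted over all 10 libraries. Single values were tested by exact permutation over libraries (scipy 1.17.1). Replicates of a group had identical values at 11.4% to 14.1% of CpGs and were kept as separate. All 24182 positions of the CpG table are C followed by G in GRCm38. The sequence of the proximal Gdf6 DMR is not reported here. Members, gene lists, motifs and tests were chosen with earlier results of these data known. Named beside the members were DMRs within 250 kb, for each gene the 3 regions with the smallest root mean squared difference to its DMR with most CpGs, and up to 6 list genes per pathway by largest areaStat. Lef1, Sfrp1, Ror1, Cxcl13 and Kdr were named after their values were seen. The alternatives were the median over CpGs, CpGs with a value in all 10 libraries (23850), an arcsine scale, at least 5 CpGs, a difference of at least 0.35, another overlap rule, leaving out each library, a replicate block and, chosen after seeing the data, leaving out CpGs at 0 in every library.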

Additional observations from a re-analysis of the deposited data

How the results depend on the processing

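The calls of Sfrp5 in SPF and of the distal Gdf6 DMR in GF libraries kept their direction and passed the limma threshold under every alternative that gave a value, and without each replicate in turn ranged from 31.8 to 36.0 and from 20.7 to 24.4 points. The proximal Gdf6 DMR ranged from 8.56 to 22.1 points in GF libraries and passed without replicate 1 of pLN GF only (limma adjusted p between 0.0407 and 0.336). With the median over CpGs the distal Gdf6 difference in GF was 36.4 points and the Sfrp5 difference in SPF 39.4 points. The numbers of DMRs called for location (1066 in either direction in SPF, 717 in GF) ranged from 1003 to 1049 and from 669 to 692 without each replicate. With a difference of at least 0.35, which none of the Gdf6 and Sfrp5 DMRs reached, fewer DMRs were tested (237 and 153) and 233 and 151 were called.

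The housing difference of the distal Gdf6 DMR turned to 1.21 points without replicate 1 of pLN SPF (1.11 in limma). Without each replicate in turn it ranged from -2.98 to 1.21 points (from -2.71 in limma). That of the proximal one then ranged from -12.0 to -5.20 points and that of Sfrp5 from -6.03 to -1.50 points. With the median over CpGs the values were outside these ranges, at -5.81 (distal), -2.72 (proximal) and -6.05 points (Sfrp5). The exact permutation p was not under 0.05 with the median or without any SPF replicate. The interaction of the proximal Gdf6 DMR was 35.1 points with the median over CpGs. Without each replicate in turn it ranged from 14.3 to 27.8 points. It was smallest without replicate 1 of pLN GF (14.3 points) or of mLN GF (14.4 points). The interaction of the distal Gdf6 DMR was -4.48 points with the median over CpGs. Without each replicate it ranged from -2.32 points (without replicate 1 of pLN SPF) to 6.06 points. That of Sfrp5 then ranged from -7.05 to 2.01 points (without replicate 1 of pLN GF). The cause of these changes was not tested. No region was called for housing or the interaction under any alternative. Without a GF replicate an arm has 1 library, which is assumed to vary like the others.

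With the replicate number as a block, 1082 and 721 DMRs were called, the proximal Gdf6 DMR had a limma adjusted p of 0.0762 in GF and no call of the members changed. The labels do not say what libraries with the same number share. Deviations of the 13 same-numbered pairs of libraries from their group means correlated by -0.0371 to 0.0483 over the merged regions. Whether such libraries came from the same experiment was not tested.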
